A study of Mus musculus with 2 samples.

Results

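The 6 mouse genes for the calcium release channels of the endoplasmic reticulum were examined: the ryanodine receptor genes Ryr1, Ryr2 and Ryr3 and the inositol 1,4,5-trisphosphate (IP3) receptor genes Itpr1, Itpr2 and Itpr3. They were taken by gene symbol, and all 6 were among the 32285 genes of both data tables. The tables come from Slide-tags, a method in which nuclei in a thin frozen section take up DNA barcodes that record position and are then read by droplet-based single-nucleus RNA sequencing. The adult library was made from a coronal hippocampus section of a perfused male mouse of the inbred strain C57BL/6J that was 56 days old. The embryonic library was made from a sagittal brain section of a snap-frozen C57BL/6J embryo at embryonic day 14 (E14), and its sex is not given in the sources used here. No mutant allele and no drug is named for either, and the spatial positions were not analysed here. With 1 library per tissue there is no replicate, nuclei of 1 library are not replicates of each other, no test was made, and tissue, age, sex and sequencing run cannot be told apart between the libraries.

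Ryanodine receptors and IP3 receptors are very large channels, each a tetramer, that let stored calcium out of the endoplasmic reticulum into the cytosol. Ryanodine receptors open when cytosolic calcium rises or, in skeletal muscle, through contact with L-type calcium channels, whereas IP3 receptors open when phospholipase C has made IP3 and calcium is present as well. Ryr1 is best known as the channel of skeletal muscle and Ryr2 as that of heart muscle, Ryr2 being also the main form in much of the brain. Ryr3 is expressed in brain at several sites including the hippocampus. Itpr1 is the main neuronal IP3 receptor and is densest in cerebellar Purkinje cells, Itpr2 is the main form of astrocytes, and Itpr3 is best known from epithelia and taste cells.

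The 6 genes share the selectivity filter, the short stretch of the pore that calcium passes. Coding DNA around it is shown to let the reader see how close the members of each family are and where the families part. Each line gives 66 coding bases, 5′ to 3′ on the coding strand, read from the GRCm38 genome with GENCODE vM21 gene models, and the capitals mark the 18 bases that encode the filter.
Ryr1: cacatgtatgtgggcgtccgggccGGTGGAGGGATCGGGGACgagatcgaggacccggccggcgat
Ryr2: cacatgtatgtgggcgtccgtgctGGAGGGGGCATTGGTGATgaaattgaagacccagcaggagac
Ryr3: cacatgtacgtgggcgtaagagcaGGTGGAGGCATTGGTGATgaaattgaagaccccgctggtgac
Itpr1: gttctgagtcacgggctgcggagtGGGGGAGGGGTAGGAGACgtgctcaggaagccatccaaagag
Itpr2: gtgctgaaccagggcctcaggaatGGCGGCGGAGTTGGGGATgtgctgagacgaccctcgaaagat
Itpr3: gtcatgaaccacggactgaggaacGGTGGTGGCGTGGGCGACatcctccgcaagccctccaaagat

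The stretches lie within single coding exons. They are at chr7:29005574-29005639 for Ryr1 (exon 105, minus strand), chr13:11560603-11560668 for Ryr2 (exon 101, minus strand) and chr2:112636607-112636672 for Ryr3 (exon 100, minus strand). Those of the IP3 receptor genes are at chr6:108518764-108518829 for Itpr1 (exon 58, plus strand), chr6:146158887-146158952 for Itpr2 (exon 53, minus strand) and chr17:27118607-27118672 for Itpr3 (exon 54, plus strand). Within a family, the 6 filter residues that these bases encode were identical in every pair, and 5 of 6 were identical in every pair across families. Over the whole aligned proteins translated from the gene models, 67.3% to 70.1% of aligned residues were identical between ryanodine receptors, 65.1% to 70.8% between IP3 receptors and 29.8% to 31.5% across families. The translated lengths were 5061, 4966 and 4888 residues for Ryr1, Ryr2 and Ryr3 and 2749, 2701 and 2670 residues for Itpr1, Itpr2 and Itpr3.

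The genes differ widely in length, which matters because reads in introns were counted. Ryr1 (ENSMUSG00000030592) spans 121.8 kb, Ryr2 (ENSMUSG00000021313) 553.8 kb and Ryr3 (ENSMUSG00000057378) 585.7 kb, while Itpr1 (ENSMUSG00000030102) spans 338.0 kb, Itpr2 (ENSMUSG00000030287) 393.9 kb and Itpr3 (ENSMUSG00000042644) 64.9 kb. Levels of different genes were therefore compared only after division by these lengths. No other gene of the tables overlaps a member on the same strand. Genes on the opposite strand overlap Ryr1 (Gm38979 and Gm26604), Ryr3 (Aven), Itpr1 (Gm44040) and Itpr3 (Itpr3os), and reads on those stretches could be split differently by another counting rule.

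After filtering, 1609 adult nuclei held 15346746 unique molecular identifiers (UMIs, which mark single captured molecules), with a median of 6607 per nucleus, and 9036 embryonic nuclei held 58923882, with a median of 4204. The libraries shared 1 barcode. Nuclei were placed in classes by lists of 8 marker genes, a class being called after a cell type with the suffix "-like", and 502 adult and 6839 embryonic nuclei that did not clearly meet 1 list stayed unassigned. Only classes with more markers of their own list than of any other among their 10 leading genes were used. The embryonic erythroid-like class of 182 nuclei met this rule but was left out by choice, because haemoglobin RNA was found across the clusters. Its largest cluster held 39.0% of its nuclei. Background RNA, which could add counts to any class, was not estimated here. The same markers had defined the classes, so this was no independent check of identity, and CA1-like nuclei had 1 such marker. Both tissue labels were met by classes so defined, with dentate granule-like, CA1-like and CA3-like nuclei in the adult and cortical, thalamic and progenitor-like nuclei in the embryo. A level is given in CPM, the summed UMIs of a gene per 1000000 UMIs of the class, with its exact 95% Poisson interval in brackets, a share is the percentage of nuclei with at least 1 UMI, with its Clopper-Pearson interval, and a ratio of 2 levels has an exact conditional interval. All intervals cover counting error only. In the embryo the unassigned nuclei held 45057049 of the UMIs, with 39.1 CPM of Ryr1 and 72.8 of Itpr1, so that the classes describe a minority of the library. Nuclei in which the nuclear RNA Malat1 made up under 1.5% of UMIs, 317 adult and 1057 embryonic, were kept, and their values are given where they differ, without a test of their part in any result.

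In adult nuclei Ryr1 was highest in dentate granule-like nuclei, the principal cells of the dentate gyrus. Its level there was 49.4 CPM (43.2 to 56.3), from 229 UMIs in 346 nuclei. CA1-like pyramidal nuclei had 12.1 (8.56 to 16.6), from 38 UMIs in 170 nuclei, so that the granule level was 4.09 times as high (2.89 to 5.92). From CA1-like nuclei down, no class differed from its neighbour beyond counting error: CA3-like nuclei held 3 Ryr1 UMIs (4.69 CPM), inhibitory-like nuclei 1 (2.22) and thalamic-like nuclei 1 (0.907). No Ryr1 UMI was seen in astrocyte-, oligodendrocyte-, oligodendrocyte precursor-, microglia- or endothelial-like nuclei. Set against a floor of 3 counts, the granule level was 13.4 times the floor of oligodendrocyte-like and 10.6 times that of astrocyte-like nuclei. These ratios are not bounds, because the upper Poisson limits of the classes lay above the floors. The limits were 4.54 CPM in oligodendrocyte-like nuclei (floor 3.69) and 5.74 in astrocyte-like nuclei (floor 4.67). With less depth, the ratio to the floor was 2.19 for endothelial-like, 1.43 for microglia-like and 1.34 for oligodendrocyte precursor-like nuclei. The upper limit of precursor-like nuclei, 45.2 CPM, exceeded the granule lower limit of 43.2, so their intervals overlapped.

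A Ryr1 UMI was present in 36.1% of granule-like nuclei (31.1 to 41.4; median 11576 UMIs) and in 18.8% of CA1-like nuclei (13.2 to 25.5; median 18629 UMIs), although the latter were deeper. Of the 236 oligodendrocyte-like nuclei (median 2946 UMIs), 0.0% had one, with an upper limit of 1.55%. After nuclei had been thinned to 1000 UMIs, a Ryr1 UMI remained in 5.25% of granule-like nuclei (3 nuclei left out as too shallow), 0.610% of CA1-like nuclei (6 left out) and 0.0% of oligodendrocyte-like nuclei (11 left out).

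In the embryo Ryr1 was highest in intermediate progenitor-like, radial glia-like and cortical excitatory-like nuclei. Intermediate progenitor-like nuclei, which bear Eomes and divide to give cortical neurons, had 113 CPM (77.5 to 158; 33 UMIs, 45 nuclei). Radial glia-like nuclei, the stem cells of the ventricular wall, had 74.6 (60.7 to 90.8; 100 UMIs, 183 nuclei) and cortical excitatory-like nuclei 73.4 (58.9 to 90.3; 89 UMIs, 107 nuclei). These 3 classes did not differ from each other beyond counting error, and intermediate progenitor-like nuclei exceeded striatal-like nuclei 3.58 times (1.39 to 11.7). Cortical excitatory-like nuclei did not differ from striatal-like nuclei beyond counting error (ratio 2.33, 0.964 to 7.37). The remaining classes lay between 31.4 in striatal-like nuclei and 0 in mural-like nuclei, none of them differing from its neighbour in the order. Among them were Cajal-Retzius-like nuclei at 25.9, thalamic-like at 22.4, choroid plexus-like at 21, forebrain GABAergic-like at 19.3 and hypothalamic-like at 12.9, followed by endothelial-like at 12.5, fibroblast or mesenchyme-like at 10.5 and microglia or macrophage-like at 7.24 CPM. Thinned to 1000 UMIs, 13.3% of intermediate progenitor-like and 11.2% of radial glia-like nuclei had a Ryr1 UMI (unthinned 37.8% and 32.8%; median depths 4513 and 4947), against 1.27% of GABAergic-like nuclei (unthinned 9.63%; median 4705) and 0.0% of fibroblast or mesenchyme-like nuclei (unthinned 4.04%; median 3732).

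Embryonic nuclei with little Malat1 had a higher Ryr1 level than the others, 71.5 against 36.2 CPM, and they made up 29.0% of radial glia-like and 20.0% of intermediate progenitor-like nuclei but 0.935% of cortical excitatory-like nuclei. Without them the Ryr1 level was 71.1 in radial glia-like, 110 in intermediate progenitor-like and 72.8 in cortical excitatory-like nuclei. The embryonic nuclei with little Malat1 also had less Ryr2 (23.6 against 102 CPM) and Ryr3 (51.0 against 211), and more Itpr2 (46.8 against 19.2). For Itpr1 and Itpr3 the interval of the ratio included 1. The embryonic section held no nuclei that could be classed as skeletal muscle, where Ryr1 is the main release channel: of 8 muscle genes over the whole library, Myod1, Myog and Myh3 had 0, 1 and 4 UMIs, Chrna1 14, Cacna1s 23 and Myh8 49. The very large genes Ttn and Neb had 700 UMIs in 536 nuclei and 1277 in 763 nuclei.

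Clustering of the embryo without the 6 genes gave 22 clusters, and Ryr1 spanned 12.7 to 138 CPM over them with a median of 20.2. The highest was a cluster of 483 nuclei, 81 of them radial glia-like and 17 intermediate progenitor-like, at 138 (126 to 152). Next was a cluster of 617 nuclei, 103 of them cortical excitatory-like, at 76.4, which was lower by a ratio of 1.81 (1.57 to 2.09). The first cluster carried the dorsal forebrain gene Emx2 at 65.5 and the ventral gene Dlx2 at 4.16 CPM. A second cluster in which radial glia-like nuclei were the commonest class carried Emx2 at 17.7 and Dlx2 at 41.9, and its Ryr1 level was 33.4. The 183 radial glia-like nuclei themselves were also split by dorsal and ventral genes, a split chosen after the values were seen. Ryr1 was 74.6 in the 85 dorsal and 55.7 in the 44 ventral nuclei, with median depths of 4602 and 8702 UMIs. The ratio of 1.34 had an interval (0.807 to 2.27) that includes 1. The other 54 nuclei, with as many dorsal as ventral genes, had 106 (71.5 to 151).

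**Figure D1:**
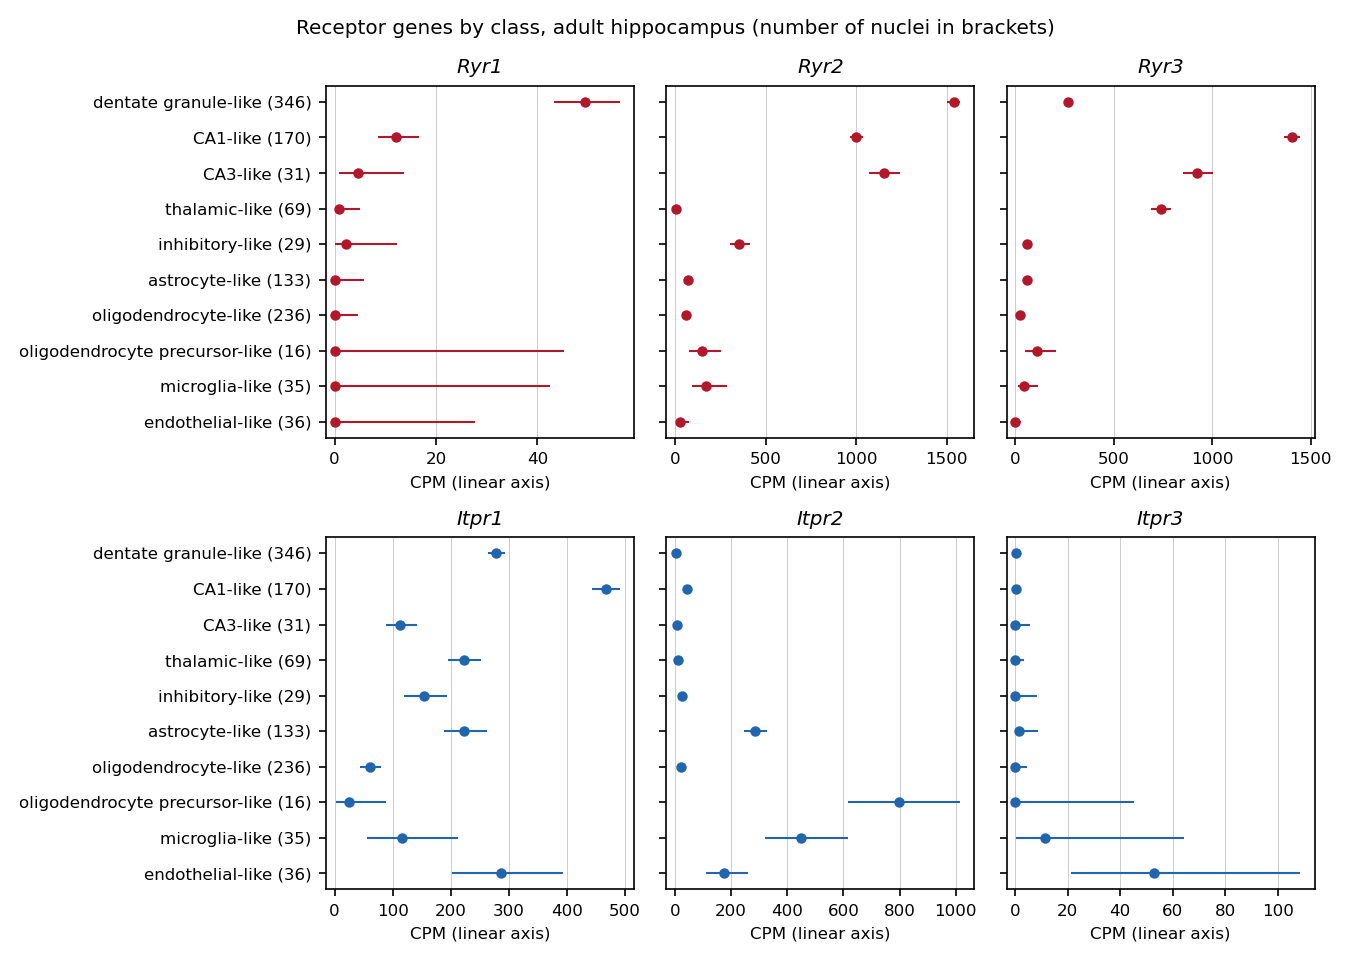
Level of each receptor gene in the 10 classes of the adult hippocampus, in CPM on a linear axis of its own per gene. Points are summed levels, bars exact 95% Poisson intervals, and brackets the number of nuclei. Ryr1 and Ryr2 were highest in dentate granule-like nuclei, Ryr3 and Itpr1 in CA1-like nuclei, Itpr2 in oligodendrocyte precursor-like nuclei and Itpr3 in endothelial-like nuclei.

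Ryr2 was the member with the most UMIs in adult nuclei and was nearly ubiquitous in granule cells. Dentate granule-like nuclei had 1537 CPM (1502 to 1573), CA3-like nuclei 1153 (1071 to 1239) and CA1-like nuclei 1000.5 (966 to 1036), each differing from the next beyond counting error. The share of nuclei with a UMI was 97.4% in granule-like nuclei, where single nuclei held up to 135 UMIs, and 78.1% after thinning. Inhibitory-like nuclei had 355 CPM (302 to 414).

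Non-neuronal classes had far less Ryr2: 173 CPM in microglia-like, 147 in oligodendrocyte precursor-like, 70.0 in astrocyte-like, 59.1 in oligodendrocyte-like and 30.1 in endothelial-like nuclei. Of the 15 Ryr2 UMIs of microglia-like nuclei, 13 were in 1 nucleus, and the mean over nuclei was 52.5. Thalamic-like neurons had 7.26 (3.13 to 14.3), from 8 UMIs in 69 nuclei with a median depth of 14516 UMIs, which did not differ from endothelial-like nuclei beyond counting error. The granule level was 212 times as high (107 to 491), and 8.70% of thalamic-like nuclei had a UMI against 6.36% of the shallower oligodendrocyte-like nuclei. With classes taken from clusters the thalamic-like level was 27.6, above the endothelial and microglial clusters at 12.7 and 21.2.

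In the embryo the order of Ryr2 was flatter. Thalamic-like nuclei had the highest level, 157 CPM (142 to 174), which did not differ from striatal-like nuclei at 101 (57.5 to 163). Among the clusters made without the 6 genes, 2 of mostly unassigned nuclei had more Ryr2 (242 and 235) than the cluster of most thalamic-like nuclei (173). Fibroblast or mesenchyme-like, microglia or macrophage-like, GABAergic-like and endothelial-like nuclei followed at 90.7, 86.9, 85.5 and 79.9. Cortical excitatory-like, choroid plexus-like, Cajal-Retzius-like, hypothalamic-like and intermediate progenitor-like nuclei had 74.2, 72.7, 71.6, 71.2 and 58.0. No step from 1 class to the next among these 11 exceeded counting error. Thalamic-like nuclei did exceed each of the others except striatal-like nuclei. The ratio ran from 1.73 (1.26 to 2.44) over fibroblast or mesenchyme-like to 2.71 (1.67 to 4.71) over intermediate progenitor-like nuclei. Radial glia-like nuclei were lower, at 27.6 (19.4 to 38.1), and the 16 mural-like nuclei held no Ryr2 UMI, where 3 counts would be 50.8. Thinned to 1000 UMIs, 12.2% of thalamic-like nuclei had a Ryr2 UMI against 1.69% of radial glia-like nuclei (unthinned 37.7% and 11.5%), and the microglia or macrophage-like nuclei had 5.26% (unthinned 14%).

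Ryr3 was highest in CA1-like nuclei, at 1406 CPM (1365 to 1448) from 4417 UMIs. CA3-like nuclei had 925 (852 to 1002), thalamic-like nuclei 739 (689 to 792) and dentate granule-like nuclei 268 (254 to 284), each step exceeding counting error. The 2 classes with the most Ryr2 and the most Ryr3 were thus different ones, and the CA1-like level of Ryr3 was 5.24 times that of granule-like nuclei (4.92 to 5.58).

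The other adult classes held little Ryr3: 110 CPM in oligodendrocyte precursor-like, 62.2 in astrocyte-like, 57.7 in inhibitory-like, 46.1 in microglia-like, 23.4 in oligodendrocyte-like and 0 in endothelial-like nuclei. Of the 40 astrocytic UMIs, 36 were in 1 nucleus, so that only 3.76% of astrocyte-like nuclei had one. A Ryr3 UMI was present in 90.0% of CA1-like and 73.9% of thalamic-like nuclei, and in 65.9% and 37.1% after thinning. In oligodendrocyte-like nuclei these shares were 3.81% and 0.444%.

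In the embryo Ryr3 was the member with the most UMIs in neurons. The order began with hypothalamic-like nuclei at 388 CPM (296 to 500; 18 nuclei), striatal-like nuclei at 352 (266 to 457; 17 nuclei) and cortical excitatory-like nuclei at 318 (287 to 352), which did not differ from each other. Of the 56 striatal-like UMIs 28 were in 1 nucleus, and 5.88% of striatal-like nuclei had a UMI after thinning. With 1 marker fewer, 17 of 18 hypothalamic-like and 15 of 17 striatal-like nuclei would have missed the marker rule. A stricter rule of 5 markers left 1 nucleus in each of these 2 classes, so their identity is uncertain. Cortical excitatory-like nuclei exceeded the next class, thalamic-like nuclei at 230 (211 to 250). Intermediate progenitor-like nuclei had 211, GABAergic-like 202, Cajal-Retzius-like 159, choroid plexus-like 121, fibroblast or mesenchyme-like 112 and endothelial-like 84.9, with no further step beyond counting error down to radial glia-like nuclei at 84.3 (69.5 to 101). Of the 62 UMIs of intermediate progenitor-like nuclei, 23 were in 1 nucleus. Microglia or macrophage-like nuclei had 159, and the 169 of mural-like nuclei came from 10 UMIs in 1 nucleus that the doublet score marked. Radial glia-like nuclei had a Ryr3 UMI in 19.7% of cases, 3.93% after thinning, and cortical excitatory-like nuclei in 64.5%, 22.4% after thinning.

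**Figure D2:**
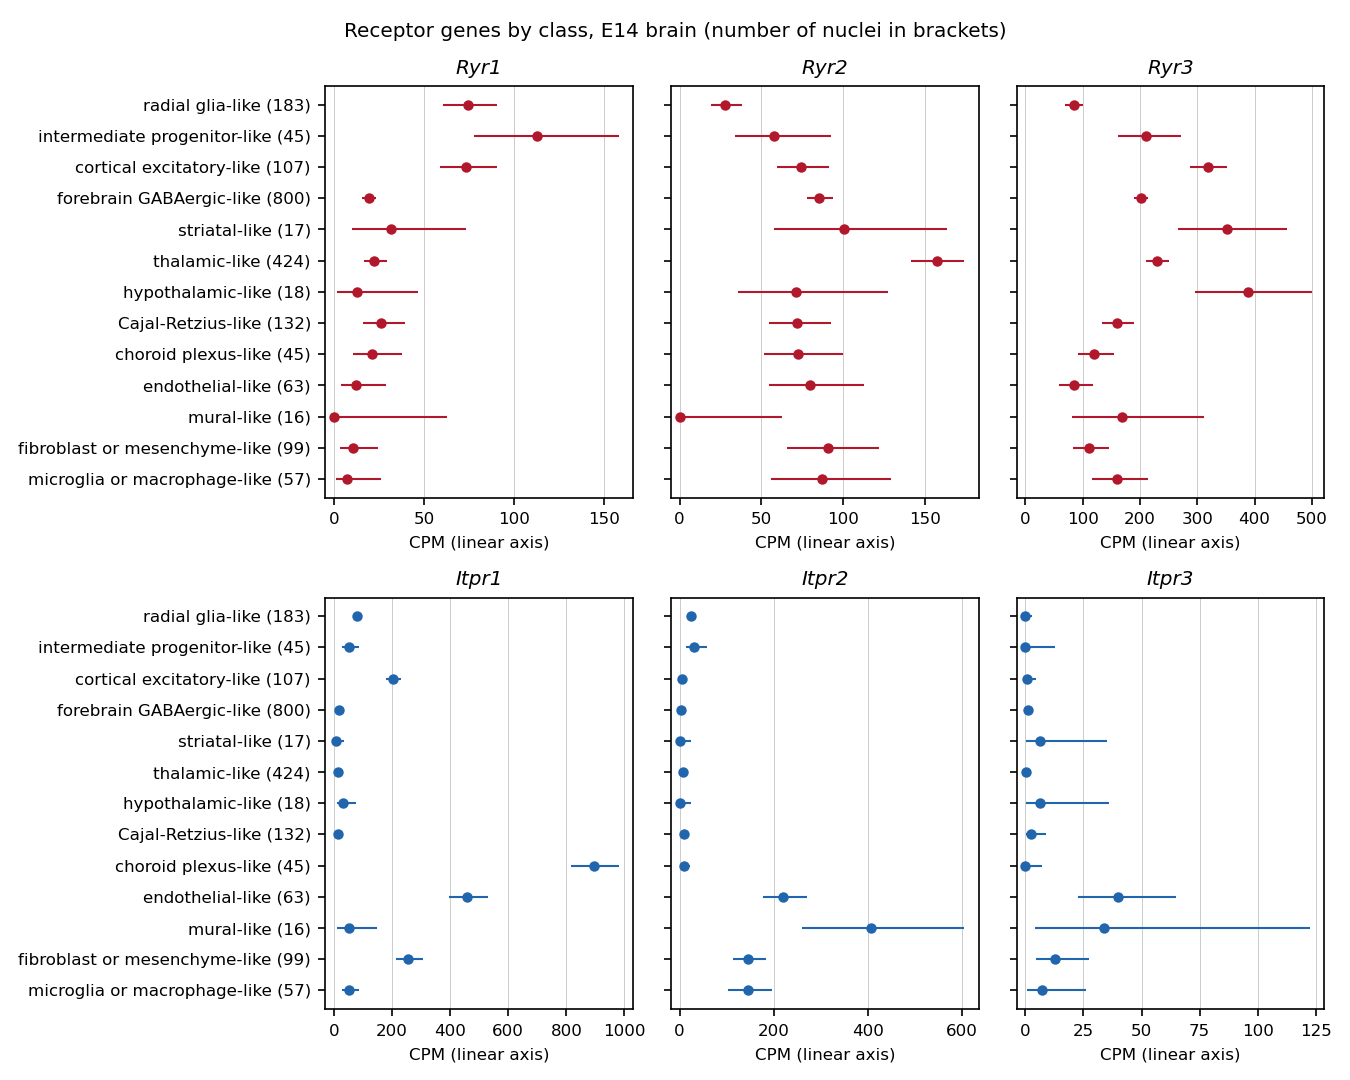
Level of each receptor gene in the 13 classes of the E14 brain, in CPM on a linear axis of its own per gene. Points are summed levels, bars exact 95% Poisson intervals, and brackets the number of nuclei. Ryr1 was highest in intermediate progenitor-like, radial glia-like and cortical excitatory-like nuclei, Itpr1 in choroid plexus-like nuclei, and Itpr2 in mural-like and endothelial-like nuclei.

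Itpr1 was the most evenly spread member of the adult tissue. CA1-like nuclei led with 467 CPM (443 to 491), 1.63 times the next class (1.18 to 2.31), followed by endothelial-like nuclei at 286 (203 to 393) and dentate granule-like nuclei at 278 (263 to 294), which did not differ. Thalamic-like nuclei had 223 (196 to 253) and astrocyte-like nuclei 223 (188 to 262). Inhibitory-like, microglia-like and CA3-like nuclei followed at 153, 115 and 112 without a step beyond counting error. Among the clusters made without the 6 genes, 2 of shallow nuclei had more Itpr1 (609 CPM in 194 nuclei and 521 in 87 nuclei, median depths 808 and 1201 UMIs) than the cluster of most CA1-like nuclei (496). The CA1-like level was 4.15 times the CA3-like level (3.28 to 5.33). Oligodendrocyte-like nuclei had 60.3 (44.6 to 79.7), and oligodendrocyte precursor-like nuclei 24.5 from 2 UMIs. Thinned to 1000 UMIs, 43.3% of CA1-like and 4.0% of oligodendrocyte-like nuclei had an Itpr1 UMI (unthinned 92.9% and 11%).

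Adult nuclei poor in Malat1 had more Itpr1 than the others, 535 against 288 CPM, a ratio of 1.86 (1.64 to 2.10). For Ryr1, Ryr2 and Ryr3 the same ratio was 0.174, 0.316 and 0.271. These barcodes were shallow, with a median of 908 UMIs against 9072.

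In the embryo Itpr1 was highest outside the neurons. Choroid plexus-like nuclei, the epithelium that makes cerebrospinal fluid, had 895 CPM (816 to 980), from 468 UMIs in 45 nuclei. A UMI was present in 86.7% of them (54.8% after thinning, 3 nuclei left out). Endothelial-like nuclei had 459 (395 to 531) and fibroblast or mesenchyme-like nuclei 255 (212 to 305). Among neurons, cortical excitatory-like nuclei stood apart with 205 (180 to 232), which was 12.6 times the level of GABAergic-like nuclei, 16.2 (9.82 to 16.3 for the ratio). Under a looser marker rule this ratio was 5.56.

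Radial glia-like and intermediate progenitor-like nuclei had 79.8 and 51.1 CPM of Itpr1. Thalamic-like nuclei had 14.2, Cajal-Retzius-like nuclei 13.6, hypothalamic-like nuclei 32.3 and striatal-like nuclei 6.29. Mural-like and microglia or macrophage-like nuclei had 50.8 and 50.7. Within radial glia-like nuclei, those with more dorsal genes had 103 CPM of Itpr1 and those with more ventral genes 34.3, a ratio of 3.02 (1.72 to 5.61). Ryr3 had the opposite order there, 61.0 against 137, a ratio of 0.445 (0.287 to 0.680). The 54 nuclei with as many of both had 106 CPM of Itpr1 and 45.9 of Ryr3. In the clusters made without the 6 genes, Itpr1 was again highest in the cluster that held most choroid plexus-like nuclei, 144 nuclei at 601 CPM (570 to 633), followed by the endothelial and mural cluster at 278.

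In the adult tissue Itpr2 was highest in oligodendrocyte precursor-, microglia-, astrocyte- and endothelial-like nuclei, and lower in all neuronal classes and in oligodendrocyte-like nuclei. Oligodendrocyte precursor-like nuclei had the highest level, 797 CPM (615 to 1016), from 65 UMIs spread over all 16 nuclei (478 under a looser marker rule). Microglia-like nuclei had 450 (320 to 615), astrocyte-like nuclei 285 (245 to 329) and endothelial-like nuclei 173 (110 to 260), and every step in this order exceeded counting error. CA1-like nuclei had 41.7 (34.9 to 49.5), with endothelial-like nuclei 4.15 times as high (2.54 to 6.50), and still exceeded dentate granule-like nuclei at 2.37 (1.19 to 4.25). The values between them were 24.4 in inhibitory-like, 20.9 in oligodendrocyte-like, 11.8 in thalamic-like and 7.81 in CA3-like nuclei, with no step beyond counting error.

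Between oligodendrocyte precursor-like nuclei and oligodendrocyte-like nuclei, the mature cells that derive from precursors, the Itpr2 ratio was 38.1 (22.1 to 69.3). Its size depended on how nuclei were grouped: in the clusters made without the 6 genes Itpr2 was 626 CPM in the precursor cluster and 81.9 in the oligodendrocyte cluster, where 15 of 241 nuclei held its 69 UMIs. Thinned to 1000 UMIs, 37.5% of precursor-like, 41.2% of microglia-like and 21.1% of astrocyte-like nuclei had an Itpr2 UMI, against 0.292% of granule-like nuclei. Unthinned, all of the precursor-like nuclei, 60.0% of microglia-like, 56.4% of astrocyte-like and 2.31% of granule-like nuclei had one.

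In the embryo Itpr2 was a gene of vessels and of non-neural cells. Mural-like nuclei, the contractile cells on vessel walls, had 407 CPM (261 to 605; 24 UMIs, 16 nuclei), and 256 under the looser marker rule. Endothelial-like nuclei had 220 (176 to 271), fibroblast or mesenchyme-like nuclei 146 (113 to 184) and microglia or macrophage-like nuclei 145 (103 to 197), of which the last 2 did not differ. Intermediate progenitor-like and radial glia-like nuclei had 30.7 and 24.6, and choroid plexus-like nuclei 9.56. Neuronal classes had 8.64 (Cajal-Retzius-like), 6.46 (thalamic-like), 4.12 (cortical excitatory-like) and 3.24 (GABAergic-like), and striatal-like and hypothalamic-like nuclei held no Itpr2 UMI, with 3 counts standing for 18.9 and 19.4 CPM. The thinned share was 33.3% in mural-like nuclei, 20.0% in endothelial-like nuclei and 0.254% in GABAergic-like nuclei, and unthinned 50.0%, 61.9% and 1.75%.

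Itpr3 was nearly absent from the counts, with 28 UMIs in all adult nuclei and 154 in all embryonic nuclei. In the adult, 7 of its UMIs were in endothelial-like nuclei, a level of 52.7 CPM (21.2 to 109), present in 13.9% of 36 nuclei. Granule-like nuclei, with 4632199 UMIs in all against 132784, held 2 Itpr3 UMIs and CA1-like, astrocyte-like and microglia-like nuclei 1 each, while CA3-like, thalamic-like, inhibitory-like, oligodendrocyte-like and precursor-like nuclei held none. In the embryo endothelial-like nuclei led as well, at 39.9 (22.8 to 64.9; 16 UMIs), next to mural-like nuclei at 33.9 (2 UMIs) and fibroblast or mesenchyme-like nuclei at 12.7 (6 UMIs). In neither library did endothelial-like nuclei differ from the next class beyond counting error. The endothelial level was 34.9 times that of GABAergic-like nuclei (13.0 to 109). No Itpr3 UMI was seen in radial glia-like, intermediate progenitor-like or choroid plexus-like nuclei. The endothelial level was 17.8, 3.90 and 6.96 times the floor of 3 counts in these classes, ratios that are not bounds. The upper Poisson limits there were 2.75, 12.6 and 7.06 CPM, below the endothelial lower limit of 22.8. The remaining neuronal classes and macrophages held 1 or 2 UMIs each.

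Set side by side across the 2 libraries, endothelial-like nuclei had 286 (adult) and 459 (E14) CPM of Itpr1, 173 and 220 of Itpr2, and 52.7 and 39.9 of Itpr3. Both endothelial sets thus had the highest Itpr3 level of their library, but neither differed from the next class beyond counting error. The ratio was 4.57 (0.587 to 206) over microglia-like nuclei in the adult and 1.18 (0.277 to 10.6) over mural-like nuclei in the embryo. Thalamic-like nuclei had 7.26 and 157 of Ryr2, 739 and 230 of Ryr3, 0.907 and 22.4 of Ryr1, and 223 and 14.2 of Itpr1. Microglia-like nuclei had 450 and microglia or macrophage-like nuclei 145 of Itpr2.

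**Figure D3:**
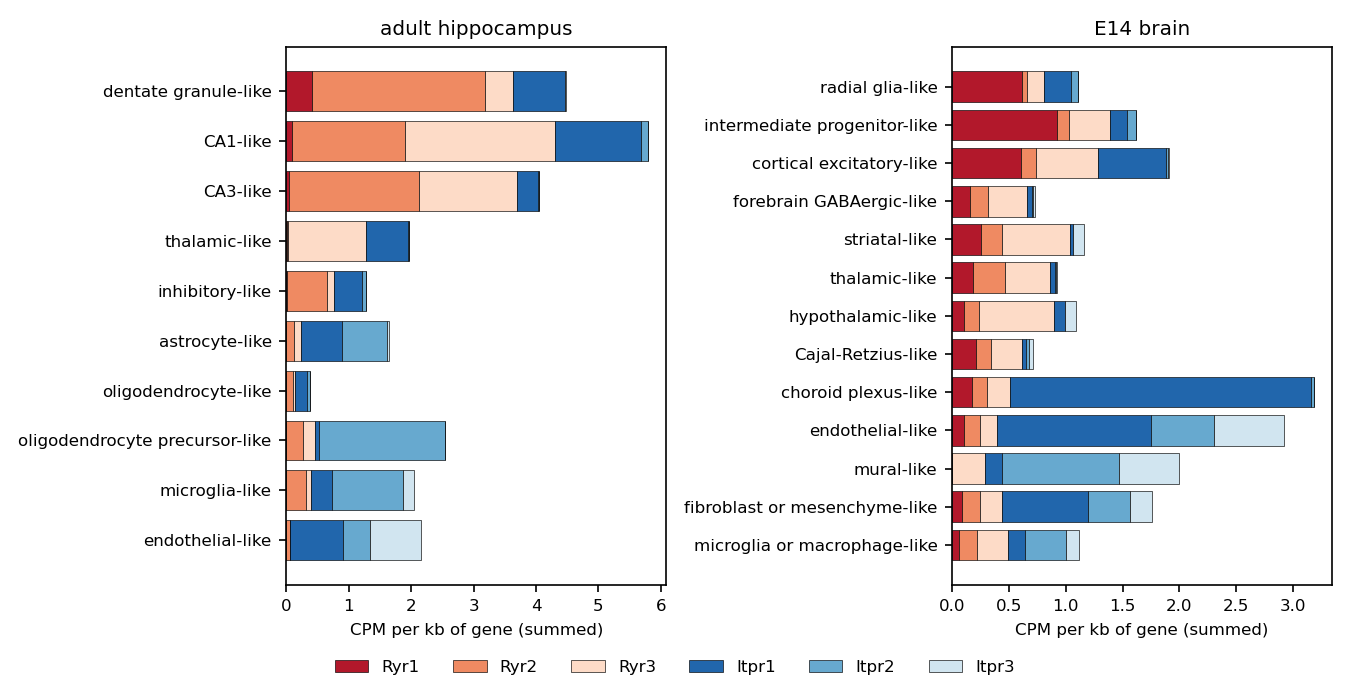
Summed level of the 6 genes per kb of gene length in each class, in CPM per kb, stacked by gene, with the adult hippocampus on the left and the E14 brain on the right. Ryanodine receptor genes (red to pale orange) filled most of the bar in every neuronal class, and IP3 receptor genes (blue) in vessels, astrocyte-like and choroid plexus-like nuclei.

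Per kb of gene length the members could be compared with each other. In dentate granule-like nuclei Ryr2 made up 62.0% of the summed per-kb level, Itpr1 18.4%, Ryr3 10.2% and Ryr1 9.07%. Ryr1, with 229 UMIs against 1243 of Ryr3 in these nuclei, was thus close to it per kb. In CA1-like nuclei Ryr3 (41.4%) and Ryr2 (31.2%) led, in CA3-like nuclei Ryr2 (51.4%) and Ryr3 (39.0%), in thalamic-like nuclei Ryr3 (64.0%) and Itpr1 (33.5%), and in inhibitory-like nuclei Ryr2 (50.4%) and Itpr1 (35.6%). IP3 receptor genes made up 85.8% in astrocyte-like, 82.2% in oligodendrocyte precursor-like, 80.9% in microglia-like and 97.5% in endothelial-like nuclei. In endothelial-like nuclei Itpr3, though it had 7 UMIs, made up 37.7% beside 39.3% for Itpr1, because its gene is short. Oligodendrocyte-like nuclei had the lowest sum, 0.378 CPM per kb, against 5.80 in CA1-like nuclei.

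In the embryo Ryr1 was the leading member per kb in progenitors, at 55.4% in radial glia-like and 57.1% in intermediate progenitor-like nuclei. Without division by length Ryr3 had more UMIs than Ryr1, 113 against 100 in radial glia-like and 62 against 33 in intermediate progenitor-like nuclei. Whether UMIs rise in proportion to gene length was not tested. In cortical excitatory-like nuclei Itpr1 (31.7%), Ryr1 (31.6%) and Ryr3 (28.5%) were nearly level. Ryr3 led in GABAergic-like (47.1%), striatal-like (52.0%), thalamic-like (42.4%), hypothalamic-like (60.6%) and Cajal-Retzius-like nuclei (38.1%). Itpr1 made up 83.2% in choroid plexus-like nuclei, and Itpr2 51.8% in mural-like nuclei. IP3 receptor genes made up 86.6% in endothelial-like nuclei.

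To place the members among all genes, dentate granule-like nuclei were set against CA1-like nuclei. Of the 13214 genes with at least 20 UMIs over both classes, 12.6% were at or above 2 times in granule-like nuclei and 8.16% at or above 2 times in CA1-like nuclei. Of the 5 members with enough UMIs, 1 was at least 2 times higher in granule-like nuclei (Ryr1) and 2 were at least 2 times higher in CA1-like nuclei (Ryr3, and Itpr2 by 17.6, 9.50 to 36.0). Ryr2 had a granule over CA1 ratio of 1.54 (1.47 to 1.60) and Itpr1 of 0.597 (0.553 to 0.644). The median ratio was 0.597 over the 5 members and 1.09 over all genes.

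The lists of partner genes also had members on both sides. Their median granule over CA1 ratios were 1.13 for junctional and luminal partners, 0.965 for modulators of IP3 receptors, 0.912 for IP3 production and breakdown, 1.13 for store refilling, 1.07 for L-type channels and 2.00 for genes of immature granule neurons. Of 11 junctional and luminal partners, which anchor or buffer the release sites, 3 were at least 2 times higher in granule-like nuclei: Jph1 (2.76), a junctophilin that tethers the endoplasmic reticulum to the plasma membrane, Trdn (3.50), which links ryanodine receptors to luminal calsequestrin, and Casq1 (5.88), the skeletal calsequestrin. Fkbp1b, whose protein binds ryanodine receptors, was 5.48 times higher in CA1-like nuclei, from 14 and 52 UMIs. Of 6 modulators of IP3 receptors, Ahcyl2 was 6.86 times higher in granule-like nuclei (6126 against 606 UMIs), and the scaffolds Homer1 and Homer2, which join IP3 receptors to metabotropic glutamate receptors, were 4.23 and 5.89 times higher in CA1-like nuclei. Of 15 genes of IP3 production and breakdown, those at least 2 times higher in granule-like nuclei included the phospholipase C genes Plcg2 and Plce1 (109 against 1 and 32 against 4 UMIs), and Plch2 (11 against 166 UMIs) was higher in CA1-like nuclei.

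Of 7 store refilling genes, Orai2, a calcium entry channel that opens when stores are empty, was 2.83 times higher in granule-like nuclei and none was at least 2 times higher in CA1-like nuclei. Of 6 genes of L-type channels and their Stac partners, Cacna1c (4.34) and Cacna1f (31 against 2 UMIs) were higher in granule-like nuclei and Stac (38.6) and Stac2 (3 against 22 UMIs) in CA1-like nuclei. Of 15 activity genes, such as Fos, Arc and Npas4, 11 were at least 2 times higher in CA1-like nuclei and 0 in granule-like nuclei. The list's median ratio was 0.236, beside 1.09 over all genes, and Homer1 stands in this list too. Of 5 genes of immature granule neurons, Sox11 (5.61) and Neurod1 (2.62) were higher in granule-like and Tubb3 (2.95) in CA1-like nuclei.

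The same was done in the embryo for cortical excitatory-like against GABAergic-like nuclei. Of 13401 genes, 4.93% were at least 2 times higher in the former and 10.1% in the latter. Of 5 members, Ryr1 (3.81, 2.83 to 5.11) and Itpr1 were at least 2 times higher in cortical excitatory-like nuclei and 0 in GABAergic-like nuclei, while Ryr3 had a ratio of 1.58 (1.40 to 1.78), Ryr2 of 0.868 (0.684 to 1.09) and Itpr2 of 1.27 from 5 and 17 UMIs. The median over the 5 was 1.58, and over all genes 0.929. Of the junctional partners tested, Jph1 (3.24) and Jph4 (2.03) were higher in cortical excitatory-like nuclei. Tmem38a (2.28, from 7 and 69 UMIs) and Trdn (1 and 22 UMIs) were higher in GABAergic-like nuclei, Trdn with an interval that includes 1. Of 7 modulators of IP3 receptors, Itprid1 (42 against 8 UMIs) and Itprid2 (9 against 11 UMIs, in far fewer nuclei) were higher in cortical excitatory-like nuclei. Of 14 genes of IP3 production, the phospholipase genes Plcb1 (3.83) and Plcd1 (9 against 11 UMIs) were higher there too, and Plcb4 (2.14) in GABAergic-like nuclei. Plcb3 was past 2 times in GABAergic-like nuclei as well, from 2 against 21 UMIs, with an interval that includes 1.

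Of 6 store refilling genes, the entry channel gene Orai1 (2.57) and Pln (3.69), whose protein restrains the refilling pump, were at least 2 times higher in cortical excitatory-like nuclei, and of 6 L-type channel genes 0 passed 2 times in either direction. Of 7 activity genes Nr4a3 (80 against 19 UMIs), Bdnf and Inhba were at least 2 times higher in cortical excitatory-like nuclei and Penk in GABAergic-like nuclei (4 against 42 UMIs, with an interval that includes 1), and of 8 genes of immature granule neurons Sema3c, Neurod1 and Eomes were higher in the former. The median ratios were 1.23 for junctional partners, 1.61 for modulators, 0.967 for IP3 production, 1.65 for store refilling, 1.11 for L-type channels, 1.85 for activity genes and 1.67 for immature neuron genes.

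In the embryonic choroid plexus-like nuclei, where Itpr1 peaked, the highest members of the other lists were Atp2a2 (296 CPM), the pump that refills the store, the store sensor Stim2 (205), Jph1 (228), Ahcyl2 (241), Plcb4 (264) and the receptor gene Grm5 (272). In oligodendrocyte precursor-like nuclei of the adult, where Itpr2 peaked, Grm5 (1508), Plcb1 (1116) and Plce1 (257) led the genes of IP3 production, without division by gene length. In adult endothelial-like nuclei these were Plcb1 (1966), Plcb4 (505) and the IP3 kinase gene Itpkb (286).

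Some genes followed a member closely across classes, as a Pearson correlation of log2(CPM + 10), over 10 adult or 13 embryonic classes of 1 library, which share its depth and background and were partly defined by such genes. The closest to adult Ryr1 was Trabd2b (r = 0.985), followed by 9830166K06Rik (0.972), Gm15624, the granule marker Lct and Chn1os1. The closest to adult Ryr2 was Ano3 (0.962), to Ryr3 Actr3b (0.946), to Itpr1 Camkv (0.928) and to Itpr2 Gm4876 (0.933). In the embryo the closest were Gm15351 to Ryr1 (0.935), Mtmr9 to Ryr2 (0.917), the junctophilin gene Jph4 to Ryr3 (0.937), the store sensor Stim2 to Itpr1 (0.888) and Tpcn1, an endolysosomal cation channel, to Itpr2 (0.981). Between members, Itpr2 and Itpr3 had r = 0.773 over the embryonic classes and 0.396 over the adult ones, and Ryr1 and Ryr2 0.717 over the adult and 0.240 over the embryonic ones. Itpr3 had too few UMIs, 12 and 38 in the classes, for its closest genes to be read.

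Ryr1 was unevenly distributed among dentate granule-like nuclei. Of the 346 nuclei, 221 held no Ryr1 UMI, 65 held 1, 32 held 2, 17 held 3, 7 held 4, 3 held 5 and 1 held 6. Poisson counts with 1 rate per UMI would give 191 nuclei at 0, 104 at 1 and 10.6 at 3. Nuclei with none and nuclei with 3 or more were thus both commoner than that, and nuclei with 1 were rarer. The share at 0 was 63.9% (58.6 to 68.9) beside 55.2%, and the variance was 1.42 times that of the Poisson counts.

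Among the other members with at least 100 UMIs in these nuclei the variance ratio was 1.71 for Itpr1, 1.35 for Ryr3 and 1.12 for Ryr2. Over 6836 such genes, 10.7% reached 1.5 times, so that of the 4 members only Itpr1 did. The level of Ryr1 did not rise steadily with depth: it was 44.3, 43.9, 65.8 and 43.9 CPM in 4 groups of 86 or 87 nuclei, from shallowest to deepest. Thinned to 2000 UMIs, 29 Ryr1 UMIs were left in 341 nuclei, too few to read a distribution.

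Clustering of all adult nuclei without the 6 genes placed 178 and 160 of the granule-like nuclei in 2 clusters and 8 elsewhere. The 2 clusters were alike in depth (median 12387 and 11175 UMIs), in Malat1 (5.53% and 5.75% of UMIs) and in mitochondrial UMIs (0.0779% and 0.0682%), and neither held a nucleus marked as a doublet. Ryr1 was 78.7 CPM (68.3 to 90.2; 206 UMIs) in the larger and 11.5 (7.32 to 17.3; 23 UMIs) in the smaller, a ratio of 6.82 (4.42 to 11). The smaller cluster's level was thus about that of CA1-like nuclei. A Ryr1 UMI was present in 59.0% of nuclei of the larger and 12.5% of the smaller cluster, and in 14.6% and 3.75% after thinning to 2000 UMIs. Of the 60 nuclei with 2 or more Ryr1 UMIs, 58 were in the larger cluster and 2 in the smaller. Within each cluster the variance of Ryr1 was close to that of Poisson counts, 0.968 times in the larger and 1.15 times in the smaller.

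**Figure D4:**
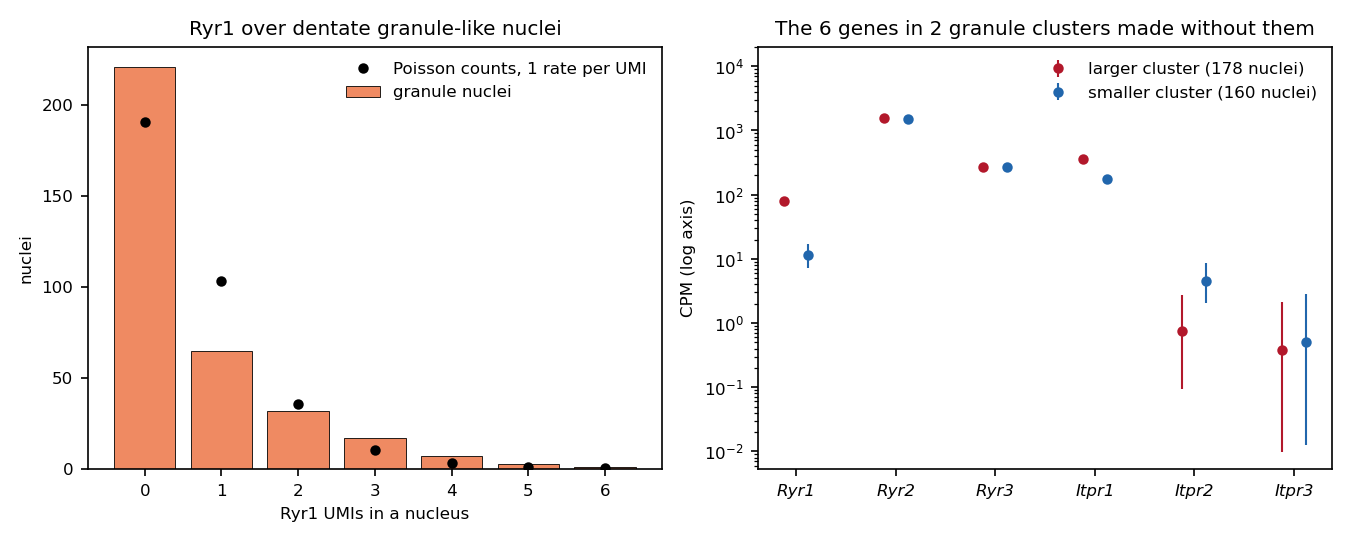
Left, number of dentate granule-like nuclei by Ryr1 UMIs held (bars) beside the number for Poisson counts with 1 rate per UMI (points), with 221 nuclei at 0 beside 191. Right, level of the 6 genes in CPM on a log axis in 2 clusters of granule-like nuclei made without these genes, with exact 95% Poisson intervals, where Ryr1 and Itpr1 were higher in the larger cluster and Ryr2 and Ryr3 were alike.

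The other release channels did not all follow. Itpr1 was 358 CPM (335 to 381) in the larger and 178 (160 to 197) in the smaller cluster, a ratio of 2.01 (1.78 to 2.28). Ryr2 had 1558 and 1516, with a ratio of 1.03 (0.980 to 1.08), and Ryr3 269 in both, with a ratio of 0.998 (0.891 to 1.12). Itpr2 had 2 UMIs in the larger and 9 in the smaller cluster, and Itpr3 1 in each. With all nuclei of the 2 clusters counted, 226 and 200 whether classed or not, Ryr1 was 75.2 and 11.4 and Itpr1 352 and 180. The clusters rest on other genes of the same nuclei, which share 1 library, and their relation to position in the dentate gyrus was not analysed here.

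Across single granule-like nuclei, Ryr1 had its highest Pearson correlations, on the log scale after scaling to 10000 UMIs, with Ahcyl2 (r = 0.377), the IP3 receptor modulator named above, and with Hectd2os (0.375), Rapgef5 (0.355), Pakap (0.353), Cnih3 (0.339), Prdm8 (0.327), Sorcs2 (0.321), Egfem1 (0.321), Ror1 (0.299) and Pip5k1b (0.298). The lowest were with Mapk4 (-0.328), Pcdh7 (-0.325), Nrxn3 (-0.310), Trpc6 (-0.301) and Nrg1 (-0.287). All genes named with the highest values were also higher in the larger of the 2 clusters, from 1.65 times (Pakap) to 4.30 times (Ror1), with Ahcyl2 at 2.05. Those with the lowest values were lower there, with ratios from 0.212 (Nrg1) to 0.418 (Trpc6). The correlations are thus no separate finding from the split of Ryr1 by cluster, and correlations within a cluster were not computed. The lowest and highest 1% of the 10055 genes ranked began at -0.152 and 0.212. Of the members, Itpr1 had r = 0.269, the 28th highest, and Ryr2 and Ryr3 had 0.0649 and -0.0323. Points are 346 nuclei of 1 library, and at 0.662 Ryr1 UMIs per nucleus such values are a description of sparse counts. After thinning to 2000 UMIs, r with Ahcyl2 was 0.0424 in one random draw and 0.185 in another, and r with Itpr1 was 0.117 in the first and -0.0139 in the other.

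By list, all 4 store refilling genes ranked had r above 0 with Ryr1 in granule-like nuclei (highest Orai2, 0.171), as had 5 of 6 modulators of IP3 receptors and both L-type channel genes, Cacna1d (0.135) and Cacna1c (0.119). Of 6 activity genes, 2 were above 0 (highest Junb, 0.137) and the lowest was Penk (-0.169), and of 5 genes of immature granule neurons 1 was (lowest Sox11, -0.161). The median was 0.0345 over 8 junctional partners and -0.0112 over 9 genes of IP3 production, beside 0.0044 over all genes. As the median of all 10055 genes was itself above 0, most genes were above 0. Counts of a few list genes above 0 therefore do not set a list apart.

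**Figure D5:**
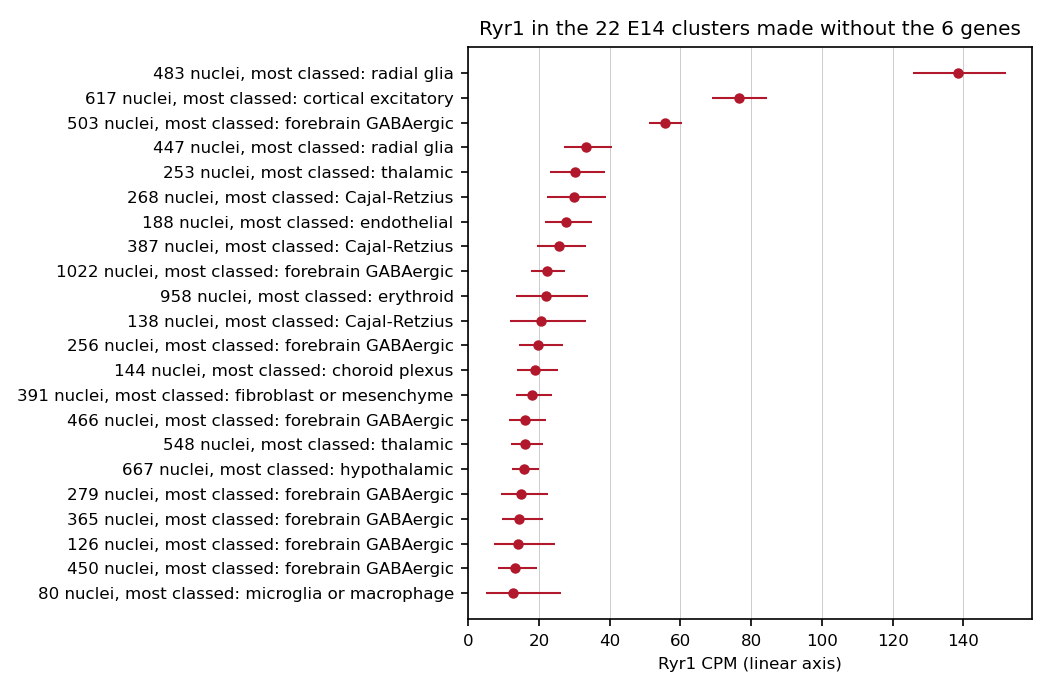
Level of Ryr1 in CPM (linear axis) in the 22 clusters of E14 nuclei made without the 6 genes, from highest to lowest, each named by its number of nuclei and the commonest class among them. Bars are exact 95% Poisson intervals. The cluster of 483 nuclei, whose commonest class was radial glia-like, stood highest at 138, and the median cluster was at 20.2.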

How the data were processed

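The deposited values are counts: the authors aligned reads to mm10 with introns included and counted UMIs per gene and nucleus barcode with Cell Ranger (6.1.2 for the adult and 7.0.1 for the embryonic library, per the file headers), without normalization. The methods name CellBender background removal for the embryo, but that file's header is Cell Ranger's.

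Barcodes were kept from 500 UMIs up where mitochondrial UMIs stayed under 5% (1609 of 1661 and 9036 of 9037). A class needed at least 3 of its 8 markers and 2 times as many as every other list, a rule set after the data had been seen, and 15 nuclei. Scrublet (scanpy 1.11.5) marked only 0.3729% and 0.0443%, so the 21 and 653 highest scores were marked instead, and kept. Shares were thinned to 1000 UMIs. Clusters came from Seurat 5.3.0 (resolution 0.8). Counts of 0 were given a floor of 3. The 6 genes and the 7 lists (85 genes, 2 not in the tables) were chosen with earlier results of these data known. Genes were named by rule: list members at or past 2 times, the 3 with most UMIs in a class described, and the extremes of correlation. The functions were tested on simulated data. Sequences and gene models were from GRCm38 with GENCODE vM21. Not every list member past 2 times is reported here.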

Additional observations from a re-analysis of the deposited data

How the results depend on the processing

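Of 26 main results under planned and added alternatives, 126 values stayed within counting error of the main value, 18 moved and 1 reversed. With classes from Seurat clusters, Ryr2 in dentate granule-like nuclei was 1499 (1537 in the report) and Itpr1 in choroid plexus-like nuclei 601 (895), and the cortical excitatory over GABAergic ratio was 5.40 for Ryr1 (3.81) and 9.22 for Itpr1 (12.6). With a looser marker rule, chosen after seeing the data, Itpr2 was 478 in oligodendrocyte precursor-like nuclei (797) and 256 in mural-like nuclei (407), Itpr1 was 705 in choroid plexus-like nuclei, and its cortical over GABAergic ratio 5.56. As a mean over nuclei, Ryr3 and Itpr1 in CA1-like nuclei were 1317 and 492 (1406 and 467), and the Ryr1 ratio 5.52. Thinned to 2000 UMIs, shares were 88.6% for Ryr3 in CA1-like (65.9% at 1000), 89.7% for Itpr1 in choroid plexus-like (54.8%) and 44.7% for Itpr2 in astrocyte-like nuclei (21.1%), by construction. In granule-like nuclei the same thinning, in a second random draw than that of the report, gave Ryr1 a variance ratio of 1.02 (1.42; 1.12 in the first draw), 88.6% at 0 (63.9%; 92.4% in the first draw), r of 0.185 with Ahcyl2 and -0.0139 with Itpr1, reversed from 0.269 but 0.117 in the first draw, and a ratio of 11.7 between the 2 clusters (6.82). The cause of the moves not made by thinning was not tested. Of 1133 other values 114 moved, most as a mean over nuclei (32 of 129) and under the looser rule (28 of 129), and 0 with a minimum of 1000 or 2000 UMIs. The Seurat clusters gave no radial glia-like, intermediate progenitor-like, striatal-like, hypothalamic-like or mural-like class. No paired analysis was possible because each tissue has 1 library. Classes of 16 to 36 nuclei and Itpr3 as a whole are limited by depth.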
